A study of Mus musculus with 4 samples.

Results

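Goblet cells of the mouse small intestine were described here as the 985 barcodes that the authors' annotation table names Goblet and marks as passing quality control, out of 5279 single-cell barcodes (singlets) with counts from this tissue and 19763 barcodes with counts in the 4 libraries of the series. They made up 18.7% of intestinal singlets (95% exact Clopper-Pearson interval 17.6 to 19.7). The study took the small intestinal epithelium and the lung of C57BL/6J mice, an inbred strain, apart by mechanical and enzymatic means. From each tissue it made 1 library of singlets and 1 of multiplets, which are clusters of attached cells that share a barcode, to ask which cell types touch. Counts are unique molecular identifiers (UMIs), each standing for 1 captured transcript, from a droplet kit that reads the 3' end. The labels name no treatment, genotype, age or number of mice. Each group is 1 library, so replicate spread is unknown and the text gives no test and no p-value. Differences are called by size alone, at more than 2-fold, and intervals in parentheses are exact 95% intervals that cover counting error only.

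Goblet cells are the secretory cells that make intestinal mucus. They assemble the gel-forming mucin MUC2 in the endoplasmic reticulum (ER), cover it with O-linked sugars in the Golgi, pack it into granules and release it onto the epithelial surface, where it keeps bacteria at a distance. They arise from crypt progenitors that escape Notch signalling and switch on the transcription factor ATOH1, a path they share with Paneth and enteroendocrine cells. Paneth cells lie at the crypt base and secrete antimicrobial defensins and lysozyme.

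The 985 goblet barcodes held 9191406 UMIs, with a median of 8905 UMIs (2014 to 26491) and 2614 genes per barcode. The other 4294 singlets, in 9 classes, had a median of 8728 UMIs. The median mitochondrial share was 2.87% in goblet cells and 4.58% in the other singlets pooled, but 0.368% in Paneth, 2.33% in enteroendocrine and 3.42% in tuft cells. Scrublet, a doublet caller, marked 42 goblet barcodes, or 4.26% (3.09 to 5.72), against 43 of the 4294 other singlets (0.726 to 1.35%). Of tuft, enteroendocrine and Paneth barcodes it marked 7.14%, 3.43% and 0%. Goblet barcodes shared 0 sequences with the intestinal multiplets, 2 with the lung singlets and 1 with the lung multiplets. The sources used here do not say how the authors assigned the classes. Since classes come from the same counts, every contrast of goblet cells with other classes below is a description.

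The name was checked on 4 defining genes: Muc2, the gel-forming mucin; Clca1, a secreted metalloprotease of the mucus layer; Tff3, a trefoil peptide; and Fcgbp, a large mucus protein. Their summed level ran from 2923 to 144362 UMIs per 1000000 (CPM) over goblet barcodes, with a median of 38284. None of the 985 lay below the 95th percentile of the other singlets pooled, and 2 of 4294 other singlets reached the goblet median. The pooled percentile does not show the overlap with single classes. In enteroendocrine barcodes the upper quartile was 6875 CPM, the 95th percentile 18207 CPM and the maximum 43850 CPM. All of these lie above the lowest goblet barcode. Summed over the class, Muc2 stood at 3894 CPM and at 277 CPM in Paneth cells, the next class, and it was between 7.53 and 126 CPM in the other 8. Clca1 reached 2490.0 CPM against 89.4 CPM in enteroendocrine cells, Tff3 27900.3 against 4370.4 CPM and Fcgbp 5629.7 against 737 CPM in the same next class. At 1500 UMIs drawn from each barcode, Muc2 was seen in 92.7% (90.9 to 94.2) of goblet barcodes and 1.57% (0.325 to 4.52) of enterocytes, the absorptive cells, which should lack it. Without drawing, at medians of 8905 and 11039 UMIs, the shares were 99.2% and 6.81%. In Paneth barcodes Muc2 was seen in 33.0% (23.3 to 43.8) at 1500 UMIs and in 96.6% without drawing. Tff3 at 1500 UMIs was seen in 100% of goblet, 79.5% of Paneth and 62.9% of enteroendocrine barcodes. By level the markers thus go with the label, while Paneth and enteroendocrine barcodes also held some of them.

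**Figure D1:**
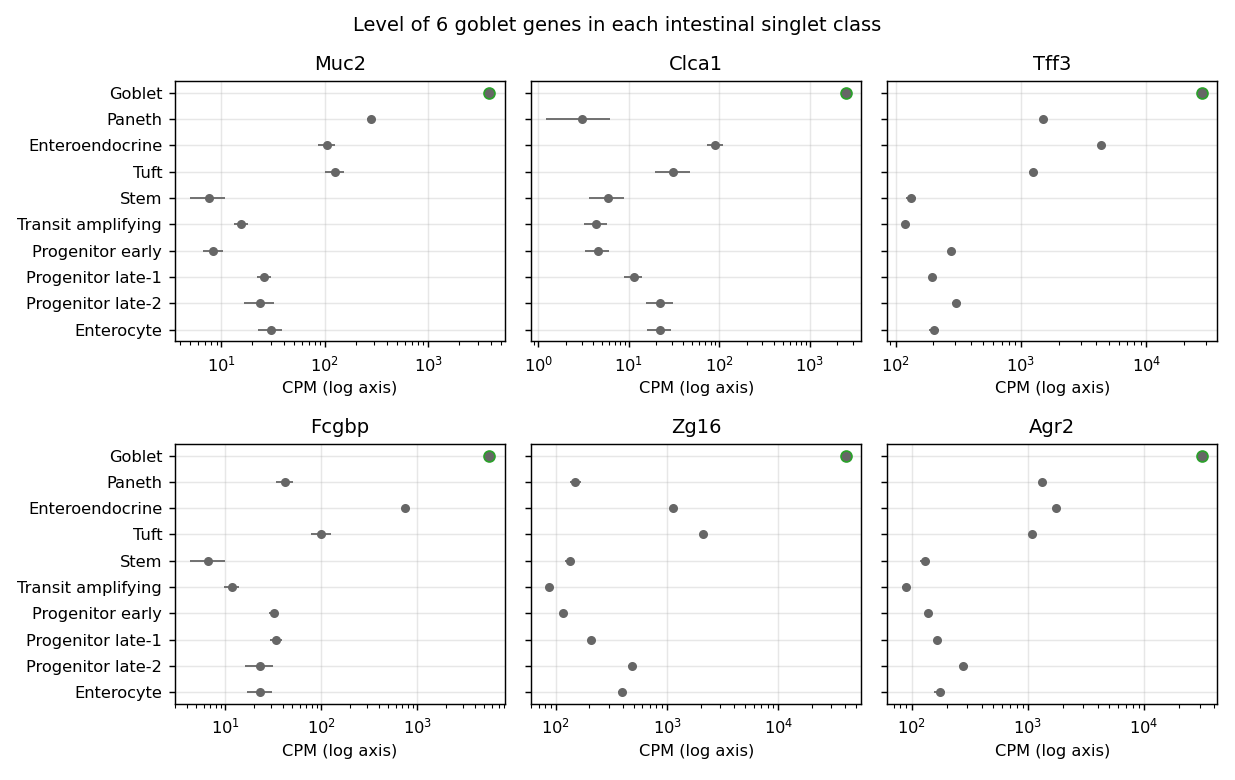
Level of Muc2, Clca1, Tff3, Fcgbp, Zg16 and Agr2 in each of the 10 singlet classes, in CPM on a log axis. Points are class sums (goblet in green) and bars are exact 95% Poisson intervals for counting error. In all 6 panels goblet cells lie to the right of the 9 other classes. Tff3 and Agr2 are also above 1000 CPM in Paneth, enteroendocrine and tuft cells, and Zg16 in enteroendocrine and tuft cells.

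The leading goblet genes lie on several chromosomes. On the GRCm38 build, in the GENCODE annotation, Muc2 spans chr7:141690340-141754693 and Fcgbp chr7:28071236-28120862, both on the plus strand of chromosome 7, where Zg16 spans chr7:127050156-127087328 on the minus strand. Agr2 spans chr12:35992907-36004087, Clca1 chr3:145003817-145032776, Tff3 chr17:31125306-31129646 and Mptx1 chr1:174330518-174332873. All of them are protein-coding genes, and the UMIs come from near the 3' ends of their transcripts. The 250 bases before the RefSeq start (GRCm38.p6) are shown for 3 genes that stand far above every other class, to compare what lies before genes that are high together in these cells. The RefSeq start of Agr2 lies inside the GENCODE span. Capitals mark the E-box CAGCTG, a sequence that factors of the ATOH1 type can bind.
Muc2, chr7:141690090-141690339, plus strand: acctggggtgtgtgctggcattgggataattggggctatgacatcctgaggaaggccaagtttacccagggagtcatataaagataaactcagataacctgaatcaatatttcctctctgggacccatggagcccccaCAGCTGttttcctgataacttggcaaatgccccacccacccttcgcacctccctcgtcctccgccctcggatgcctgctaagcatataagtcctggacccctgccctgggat
Fcgbp, chr7:28070986-28071235, plus strand: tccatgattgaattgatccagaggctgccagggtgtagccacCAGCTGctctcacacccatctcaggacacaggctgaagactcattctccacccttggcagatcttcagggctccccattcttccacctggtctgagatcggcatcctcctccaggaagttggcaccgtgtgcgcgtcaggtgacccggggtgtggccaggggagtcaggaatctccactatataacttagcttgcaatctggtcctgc
Agr2, chr12:35992675-35992924, plus strand: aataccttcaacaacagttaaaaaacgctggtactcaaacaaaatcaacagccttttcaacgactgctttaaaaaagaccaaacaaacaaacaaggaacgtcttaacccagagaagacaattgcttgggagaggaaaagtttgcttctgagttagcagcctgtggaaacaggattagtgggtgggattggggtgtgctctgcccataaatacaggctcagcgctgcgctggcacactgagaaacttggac
The E-box occurs once in the Muc2 window and once in the Fcgbp window, starting 112 and 208 bases before the start, and not in the Agr2 window. It reads the same on both strands. Of the 15 genes named below as farthest above the next class, 9 had a RefSeq entry, and 1 of the 9 (Muc2) held CAGCTG, against 13.0% of all 32841 windows of this length. ACGTG, the core of an element bound in the unfolded protein response, was searched on both strands and occurred in 1 of the 9 (C2cd4a) and in 16.6% of all windows. The forkhead sequence TGTTTAC, searched on both strands, was in 0 of the 9 and in 3.17% of all windows. These matches describe letters and not binding.

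Against the pooled sum of the other 9 classes, 884 of 11344 genes with at least 50 UMIs on either side were over 2-fold higher in goblet cells (7.79%) and 2014 were over 2-fold lower (17.8%). The median gene stood at -0.26 on the log2 scale. TMM scaling, which lets the bulk of genes set the library sizes, moved that median up by 0.22 and gave 1138 higher and 1565 lower genes. A stricter reading asks for more than 2-fold above each of the 9 other classes. It left 191 genes (1.68%), and 114 under TMM scaling. The next class was enteroendocrine for 84 of the 191, Paneth and tuft for 25 each and late-2 progenitors for 23. Among all 884 higher genes it was enteroendocrine for 375, tuft for 213, enterocyte for 82, late-2 progenitors for 81 and Paneth for 60. The enteroendocrine lead was thus not particular to the 191 genes. These counts name the highest other class gene by gene and do not compare whole profiles.

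The 15 genes farthest above their next class held both mucus products and less known genes. Mptx1, a secreted pentraxin, led with 92.6 CPM in goblet cells and 1.88 CPM in enteroendocrine cells. It was uneven within the class, since 19.3% of goblet barcodes had a UMI and 10 barcodes held 30.6% of its UMIs. Clca1 stood 27.9-fold above its next class. Zg16, a lectin that binds bacterial cell walls, was the most abundant goblet transcript outside ribosomal protein, elongation factor and mitochondrial genes, at 40486 CPM. Its next class, tuft cells, had 2098 CPM, of which 1 barcode held 93.8%. Agr2, an ER protein disulfide isomerase needed for MUC2 assembly, reached 31619 CPM against 1746 CPM in enteroendocrine cells. Klk1, a tissue kallikrein protease, stood at 1227 against 106 CPM, and Capn9, a calpain protease, at 93.1 against 7.08 CPM. Pla2g10, a secreted phospholipase, was 19.4-fold above its next class and Tpsg1, a membrane-anchored tryptase, stood at 445 against 22.7 CPM.

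The rest of the 15 are not known as secreted products. Id4, an inhibitor of helix-loop-helix factors, stood at 62.7 against 2.82 CPM in its next class, and Kcnk6, a potassium channel, at 61.4 against 3.76 CPM. Rep15, a protein that binds the vesicle GTPase RAB15, stood at 315 against 23.5 CPM. Bcas1 reached 174 against 7.53 CPM, Tnfaip8 112 against 12.2 CPM and C2cd4a 51.6 against 5.65 CPM. Over the 15 genes the ratio to the next class ran from 9.13 to 49.2, but 7 of them had under 50 UMIs in all other classes together and 7 under 10 in the next class. Mptx1 had 2 UMIs in its next class, so that its ratio had an interval of 13.6 to 407, and Id4 had 3 (7.56 to 108). The lowest lower bound among the 15 was 4.16, for C2cd4a.

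Of 14 secreted mucus genes, 9 passed the filter on low counts, 8 of these were over 2-fold higher in goblet cells than in the pooled others and 0 were lower. Over all genes tested 7.79% were higher and 17.8% lower, and the counts of each list below stand beside these shares. The list's median was 6.76 on the log2 scale, and its summed level was 134249 CPM against 5636 CPM. Spink4, a small secreted protease inhibitor, was 20.4-fold higher (20.2 to 20.7) but only 1.48-fold above Paneth cells, which had 12535 CPM. Itln1, a lectin that binds bacterial sugars, was the member not called, at 2503 CPM in goblet cells and 60383 CPM in Paneth cells. Tff2 was under the filter with 4.90 CPM, and Tff1, Muc5ac, Muc5b and Muc6 had no row among the singlet counts. Membrane mucins, which stay on the cell surface, gave another picture. Muc13 was at 545 CPM against 299 CPM and was not called. Muc4 was lower, at 12.1 against 35.9 CPM. Muc3a was higher (81.2 against 16.3 CPM) while Muc3 was lower (8.49 against 85.0 CPM), and since these are related gene models the split of UMIs between them is uncertain.

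Enzymes that build the O-linked sugars of mucin were mostly higher. Of 34 listed genes 25 were counted, 18 of them were over 2-fold higher and 2 lower, with a median of 2.37 (log2). Over 2-fold above every other class were 12. Of the 18, 4 passed the filter only through goblet cells, as did 1 each of the higher granule, factor, ion, antimicrobial and receptor genes below. The first sugar is added by GALNT enzymes: Galnt12 reached 385 CPM against 30.1 CPM in the pooled others, and Galnt7 380.1 against 51.6 CPM. Galnt5 was further apart, at 64.0 against 1.22 CPM. Galnt1 (79.7 against 70.8 CPM) and Galnt11 (11.5 against 16.8 CPM) were not called, so members of this family differed. C1galt1, which makes the core 1 structure, was 5.78-fold higher and its chaperone C1galt1c1 7.96-fold higher (7.52 to 8.43). Gcnt3, which branches the chain, stood at 291 against 8.32 CPM and its relative Gcnt4 at 0.762 against 8.58 CPM. Sialyltransferases also went both ways, with St6gal1 at 12.8 against 0.181 CPM and St3gal4 at 80.4 against 213 CPM, the latter highest in enterocytes at 915 CPM.

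Sulfation, sialic acid and sugar nucleotide supply genes had 18 of 20 members counted, 11 over 2-fold higher and 1 lower. Over 2-fold above every other class were 6. Chst4, a sulfotransferase that acts on mucin sugars, stood at 77.6 CPM against 1.94 CPM. The enzymes Gfpt1 and Uap1, which make the building block UDP-N-acetylglucosamine, were 4.56-fold (4.34 to 4.80) and 4.33-fold (4.10 to 4.56) higher. Nans, a sialic acid synthase, was 3.56-fold higher (3.40 to 3.73), and Slc35a1 and Slc35a2, which carry CMP-sialic acid and UDP-galactose into the Golgi, were 3.44-fold and 4.03-fold higher. For sulfate activation, Papss1 was 2.89-fold higher whereas Papss2 was lower, at 17.3 against 63.4 CPM and 904 CPM in enterocytes.

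Of 26 ER folding genes, 21 were called higher and 0 lower, beside 7.79% and 17.8% of all genes, with a median of 1.56 (log2). Over 2-fold above every other class were 11. Besides Agr2, the thioredoxin-like Txndc5 (1411 against 69.6 CPM), the isomerase Pdia5 (342 against 13.2 CPM) and the prolyl isomerase Fkbp11 (313 against 14.5 CPM) were over 20-fold higher. General ER chaperones differed less. Hspa5 (BiP) was 3.18-fold higher (3.12 to 3.24), Calr 2.99-fold (2.90 to 3.07) and Hsp90b1 2.03-fold (1.99 to 2.07), while Canx was level at 315 and 315 CPM. Selenom, an ER selenoprotein, was 20.3-fold above the pooled others, yet tuft cells had 1615 CPM against 1708 CPM in goblet cells.

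The unfolded protein response, which adjusts folding capacity to load, had 15 of 18 members counted, 10 higher and 0 lower. Only 3 were over 2-fold above every other class, and the summed level was 1829 CPM against 1228 CPM in enteroendocrine cells. Ern2, a sensor found in mucus-secreting epithelia, stood at 113 CPM against 2.70 CPM, and its relative Ern1 at 9.47 against 7.98 CPM was not called. Xbp1, the factor activated downstream of these sensors, was 4.31-fold higher (4.11 to 4.51) and Herpud1, of ER-associated degradation, 4.90-fold (4.65 to 5.16). Entry into the ER and early vesicle traffic had 32 of 32 members counted, 20 higher and 0 lower. Here 5 were over 2-fold above every other class, and the summed level was 13469 CPM against 7083 CPM in enteroendocrine cells. The translocon subunit Sec61b was 3.04-fold higher (2.97 to 3.11), the signal peptidase subunit Sec11c 3.88-fold and the cargo receptor Tmed3 5.63-fold (5.37 to 5.90). Kdelr3, a receptor that returns ER proteins, was the farthest apart of this list, at 116 against 2.28 CPM, while Kdelr1 was 1.75-fold higher and not called. Sar1b, a coat GTPase used for large lipoprotein cargo, was at 144 against 201 CPM and 703 CPM in enterocytes.

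Granule release genes had 18 of 20 members counted, 10 higher and 2 lower, beside 7.79% and 17.8% of all genes. Of these, 5 were over 2-fold above every other class. Their summed level was 1591 CPM in goblet, 1205 CPM in enteroendocrine and 1152 CPM in tuft cells. The granule GTPases Rab3d (151 against 15.9 CPM) and Rab27b (205 against 19.4 CPM) were higher, with Rab27b at 207 CPM in tuft cells as well. Their partner Sytl2 stood at 147 against 3.19 CPM, and Scin, which cuts actin filaments, at 445 against 18.2 CPM. Nlrp6, a sensor reported to act in goblet cell secretion, was lower: 22.4 CPM in goblet cells, 206 CPM in the pooled others and 326 CPM in stem cells, the highest class. Paneth, tuft and enteroendocrine cells were low as well, at 9.10, 15.6 and 35.8 CPM, so this was not particular to goblet cells. A UMI of Nlrp6 was found in 12.7% of goblet barcodes. The general fusion proteins Vamp8 (188 against 167 CPM) and Stxbp2 (47.2 against 40.3 CPM) were not called.

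**Figure D2:**
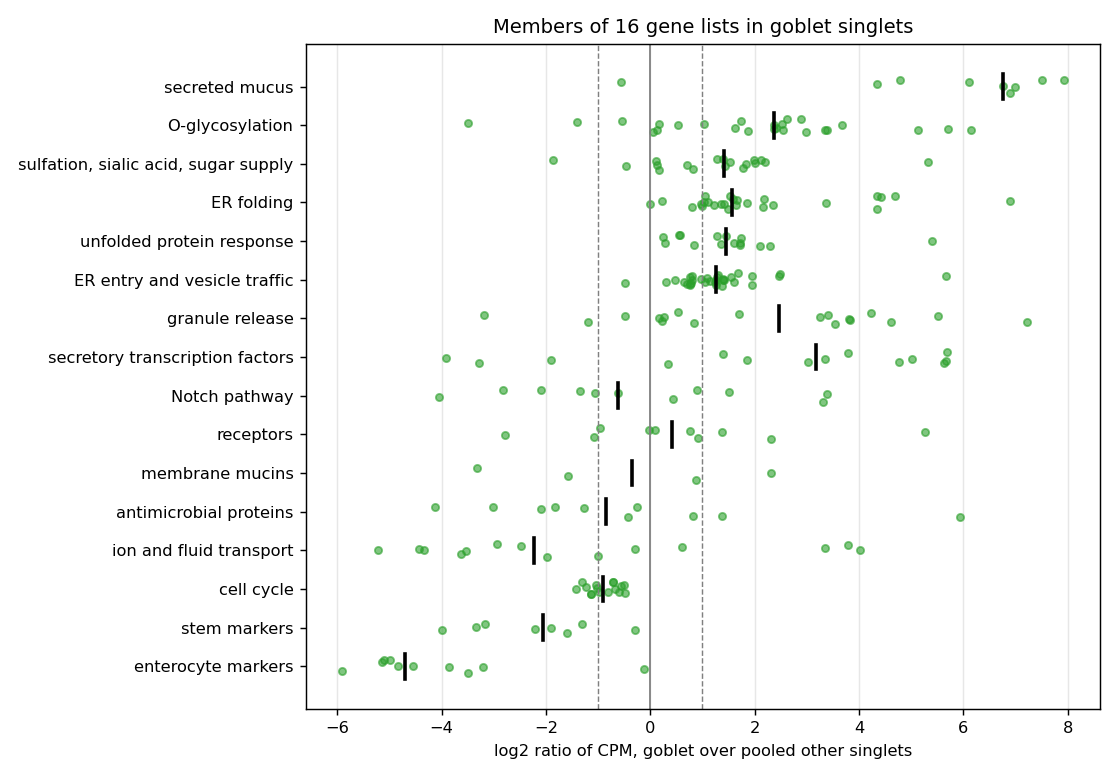
Log2 ratio of CPM in goblet cells over the pooled other singlets for members of 16 gene lists. Each point is 1 gene with at least 50 UMIs on either side and at least 1 on both, black bars are list medians and dashed lines mark 2-fold; among the 16 lists drawn, which leave out the goblet, Paneth, enteroendocrine, tuft, immune and stromal markers, secreted mucus has the highest and enterocyte markers the lowest median.

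Transcription factors of the secretory path had all 14 members counted, 10 higher and 3 lower. Only 6 were over 2-fold above every other class. The summed level was 1857.5 CPM in goblet, 1697 CPM in enteroendocrine and 1402 CPM in tuft cells. Atoh1 stood at 330.3 CPM against 6.46 CPM in the pooled others and 43.3 CPM in enteroendocrine cells, and Spdef, a goblet maturation factor, at 242 against 4.87 and 69.6 CPM. At 1500 UMIs Atoh1 was seen in 38.7% (35.6 to 41.8) of goblet barcodes, in 4.55% (1.25 to 11.2) of Paneth barcodes and in 0% (0 to 1.91) of enterocytes, and at full depth in 87.8%, 51.1% and 1.05%. Creb3l1 and Creb3l4, membrane-bound factors of secretory cells, were 27.3-fold (24.2 to 30.8) and 32.5-fold (28.4 to 37.4) higher, and Foxa3 was 8.15-fold (7.64 to 8.70) higher. The 3 lower members were Neurog3 of enteroendocrine cells (0.762 CPM), Pou2f3 of tuft cells (0.435 CPM) and Sox4 (37.5 against 141 CPM). Of these, 2 passed the filter only through the other singlets.

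In the Notch pathway 11 of 15 members were counted, 3 higher and 5 lower, and ligands stood on both sides. The ligands Dll1 (136 against 12.9 CPM) and Dll4 (29.5 against 2.96 CPM) and the receptor-modifying enzyme Lfng (13.4 against 4.72 CPM) were higher. Enteroendocrine cells held the ligands at like levels, 131 CPM for Dll1 and 40.5 CPM for Dll4. The receptors Notch1 (2.94 against 20.8 CPM) and Notch2 (0.435 against 7.23 CPM), the target Hes1 (27.1 against 69.2 CPM) and the ligands Jag1 and Jag2 were lower. Of the 5 lower members, 4 passed the filter only through the other singlets.

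Ion and fluid transport had 14 of 18 members counted, 3 higher and 9 lower. Of the 9, 5 passed the filter only through the other singlets. The chloride channel Cftr was at 13.2 CPM in goblet cells, 101 CPM in the pooled others and 179.6 CPM in stem cells. Clca3b, a relative of Clca1, was lower as well (113 against 447 CPM). The 3 higher members were the calcium pumps Atp2c2 (109 against 7.91 CPM) and Atp2a3 (159 against 15.6 CPM, with 605 CPM in tuft cells) and the potassium channel Kcnma1 (13.9 against 0.856 CPM). Antimicrobial genes had 10 of 12 members counted, 2 higher and 5 lower. Retnlb, a goblet cell product induced in worm infection, was at 14.4 CPM, and 10 barcodes held 97.0% of its 132 UMIs. Lypd8, which coats flagellated bacteria, was at 3411 against 1934 CPM and not called. Among 10 counted receptors and signalling genes of 12, Chrm1, a muscarinic acetylcholine receptor, was 38.5-fold higher (21.2 to 76.7) and Ptger4, a prostaglandin receptor, stood at 36.6 against 7.34 CPM. Il13ra1, of the interleukin-13 receptor, was at 62.3 CPM in goblet cells and 656 CPM in tuft cells.

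The 10 genes lowest against the pooled others were markers of other lineages. The hormone gene Sst was at 0 UMIs in goblet cells, at least 202-fold lower than 66.0 CPM with 3 counts over the class as the floor. Of its UMIs elsewhere 1 barcode held 58.0%, and without that barcode the bound was at least 84.9-fold. Cck (0.326 against 204 CPM), Gcg (0.653 against 235 CPM), Nts, Pyy and Ghrl followed, each with its highest level in the enteroendocrine class. Of the UMIs outside goblet cells 1 barcode held 99.2% for Nts and 59.5% for Ghrl. Without that barcode the other singlets were at 0.674 CPM of Nts, with 3 UMIs in goblet cells, and at 63.3 CPM of Ghrl. The others were Mptx2 and Defa29 of Paneth cells, Rgs13 of tuft cells and Apoa4 of enterocytes (3.48 against 209 CPM). Against the 6 stem, transit amplifying, progenitor and enterocyte classes alone, Nts was 1.25-fold, Ghrl 1.12-fold and Rgs13 1.88-fold higher in goblet cells.

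A rule added after the values were seen therefore asked for less than 1/2 of the level of each of those 6 classes, and 304 genes met it (2.68%). The lowest by ratio was Tm4sf20, a tetraspanin-like membrane protein, at 48.3 CPM in goblet cells and 555 CPM in the lowest of the 6. Otc, an enzyme of citrulline synthesis, was at 30.4 against 269 CPM, and Mgst1, a glutathione transferase, at 71.2 against 427 CPM. Ccl25, the chemokine that draws T cells to the small intestine, was at 99.8 against 564 CPM. Nr3c1, the glucocorticoid receptor, was at 20.5 against 114 CPM and the prolactin receptor Prlr at 15.4 against 88.5 CPM. Mlxipl, a glucose-responsive factor, Amn, a part of the vitamin B12 receptor, Cd302 and Nlrp6 completed the 10. The rule left out the Paneth, tuft and enteroendocrine classes. By CPM each of the 10 was lower still in Paneth cells, where Defa24 alone took 308200 CPM, and higher in enteroendocrine cells. Tuft cells stood on both sides. Otc was at 19.5 CPM in Paneth, 25.5 CPM in tuft and 60.2 CPM in enteroendocrine cells, and Tm4sf20 at 28.2, 129 and 471 CPM. Low levels of these genes were thus not particular to goblet cells.

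Markers of other cell types were mostly lower. Stem cell markers had 7 of 8 lower and enterocyte markers 9 of 10 lower, with the fatty acid binder Fabp2 not called at 1871 against 2029.8 CPM. Enteroendocrine markers had 9 of 10 lower and 1 higher, the hormone gene Sct, at 439.8 against 80.5 CPM, with 2482 CPM in the enteroendocrine class. All 5 counted of 7 tuft markers were lower. Of the lower enteroendocrine, tuft and enterocyte markers, 8, 5 and 3 passed the filter only through the other singlets. Of 11 immune markers 6 had a row, and Ptprc, Trac and Cd79a were at 0 UMIs in goblet cells. Of 6 stromal markers 3 had a row, with Col1a1 at 0 UMIs and Vim at 5.44 CPM. Paneth markers had 6 of 8 lower, Defa17 not called and Mmp7, the protease that activates defensins, higher at 399.5 against 109.9 CPM. Without Paneth cells in the reference the summed Paneth list was 10.6-fold higher in goblet cells, and against the 6 classes the summed enteroendocrine, tuft and stromal lists were 14.5-fold, 3.11-fold and 4.38-fold higher. Sct held 91.3% of the enteroendocrine UMIs in goblet cells, and without it the fold was 1.5. Vim held 50 of the 56 stromal UMIs, 47 of them in 1 barcode, and without it the fold was 0.512. Over goblet barcodes the summed level (5th to 95th percentile) ran over 140.5 to 31991 CPM for Paneth markers, 0 to 1387 CPM for stem markers, 506 to 3678 CPM for enterocyte markers and 0 to 1383 CPM for enteroendocrine markers. The part of such RNA in the gene contrasts above was not tested.

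Goblet barcodes differed among themselves, and mucus genes did not all spread alike. Agr2 was even: 5th, 50th and 95th percentiles were 108, 317 and 539 UMIs per 10000. Tff3 was similar, at 104, 273 and 508, and Muc2 ran from 4.40 over 32.1 to 104. Zg16 spread more than Agr2, Tff3, Muc2, Fcgbp and Clca1, with 5th and 95th percentiles of 0 and 1603 around a median of 108, and 100 barcodes held 46.7% of its UMIs. Clca1 ran from 0 over 15.4 to 88.5. For Itln1, Defa24, Lyz1 and Reg4 the medians were 1.68, 2.78, 1.45 and 0 per 10000, while 100 barcodes held 78.4%, 89.9%, 83.6% and 73.6% of their UMIs. Defa24 is an alpha-defensin, and Reg4 a secreted lectin of the Reg family.

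**Figure D3:**
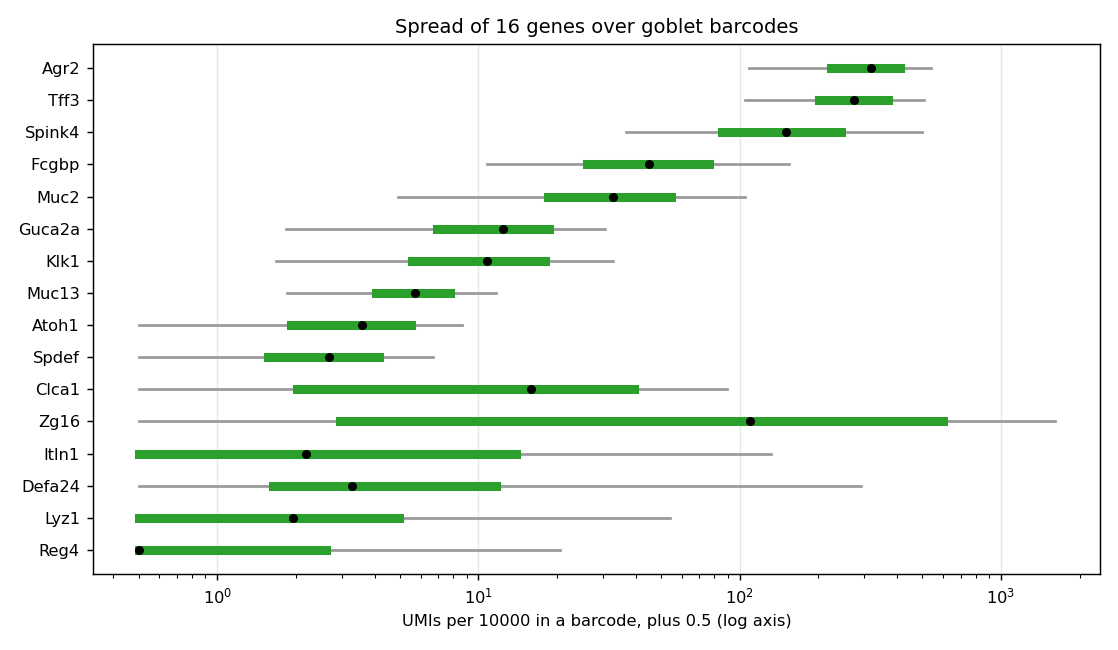
Spread of 16 genes over the 985 goblet barcodes, in UMIs per 10000 plus 0.5 on a log axis. Points are medians, thick green bars run from the 25th to the 75th percentile and thin bars from the 5th to the 95th; Agr2 and Tff3 span narrow ranges, Zg16 and Clca1 wide ones, and Itln1, Defa24, Lyz1 and Reg4 have low medians with long upper ends.

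Over the 985 barcodes, which share 1 library and differ in depth, Spearman's rho between levels per 10000 UMIs was 0.71 for Clca1 and Zg16 (0.65 at 1500 UMIs), 0.68 for Muc2 and Tff3 (0.58) and 0.65 for Muc2 and Zg16 (0.58). Agr2 followed Muc2 less, with 0.28 (0.24). Some pairs outside the marker genes also went together: rho was 0.49 for Spink4 and Defa24 (0.45), 0.51 for Spink4 and Reg4 (0.43) and 0.44 for Itln1 and Defa24 (0.42). Spink4 also went with Tff3, with 0.46 (0.42), and with Muc2, with 0.42 (0.36). For Clca1 rho was -0.27 with Defa24 (-0.24), -0.33 with Reg4 (-0.30) and -0.05 with Spink4 (-0.06). These values describe the barcodes and carry no test.

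Some goblet barcodes carried cell cycle transcripts. With 1500 UMIs drawn per barcode and 2 or more UMIs of 16 cell cycle genes required, 183 of 985 were in this range, or 18.6% (16.2 to 21.2). The share was 84.8% in transit amplifying cells, 54.4% in early progenitors, 16.7% in stem cells and 9.48% in late-1 progenitors. In tuft, enteroendocrine and Paneth cells it was 7.14%, 5.14% and 4.55%, in late-2 progenitors 2.96% and in enterocytes 0.524%. Cycling is here a range and not a type: 158 goblet barcodes had 1 UMI of the 16 genes and 55 had 2. A limit of 3 UMIs gave 13.0% and a limit of 1 gave 34.6%. Barcodes in the range had a median of 10464 UMIs against 8743 in the rest, and Scrublet marked 18 of them against 24 of 802; the part of doublets was not tested, and without the marked barcodes the share was 17.5%. As a class, goblet cells had 7 of 16 cell cycle genes lower and 0 higher than the pooled others, with a summed ratio of 0.573 that became 1.16 with each class weighted equally.

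Outside the 16 genes, 428 of 8048 genes were over 2-fold higher in the cycling range (5.32%) and 166 lower (2.06%; 50 with a limit of 1 UMI). The median gene stood at 0.16 on the log2 scale. Among the highest were Nusap1, Ckap2l, Kif11, Hmmr, Prc1, Aurkb and Ndc80, known mostly for roles at the spindle and kinetochore. Nusap1 stood at 99.4 CPM against 1.67 CPM in the other goblet barcodes, and Aurkb, a mitotic kinase, at 94.9 against 3.19 CPM. Mucus genes were lower there: Zg16 was at 10267 against 48848 CPM, Clca1 at 959 against 2914 CPM and Muc2 at 1825 against 4466 CPM. Among 9 counted secreted mucus genes 4 were over 2-fold lower and 0 higher. Tff3 (17961 against 30650.4 CPM) and Agr2 (23958 against 33738 CPM) stayed within 2-fold, as did Atoh1 (295 against 340.0 CPM). None of 23 counted O-glycosylation, 26 ER folding or 32 ER entry genes was past 2-fold. The 8 lowest were AY761184, a defensin family gene model, Rgs2, a regulator of G protein signalling, Zg16, Fabp6, the ileal bile acid binder, Nupr1, Reg3b, Gsta4 and Defa17. Of the UMIs in the other goblet barcodes 1 barcode held 42.4% for AY761184 and 34.4% for Fabp6. The enterocyte markers Rbp2 and Fabp1 were higher in the range, with Fabp1 at 136 against 33.8 CPM, of which 1 barcode held 74.2%. Of 6 counted stem cell markers 0 were past 2-fold, but their median was 0.90 on the log2 scale, and Olfm4 stood at 349 against 180.3 CPM, Cdca7 at 43.2 against 21.9 CPM and Smoc2 at 91.9 against 47.9 CPM.

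The 25% of goblet barcodes with most Zg16 (247, called Zg16-high) were set beside the 25% with least (247, Zg16-low), a split chosen after the values were seen. Zg16-high barcodes had at least 598 and Zg16-low barcodes at most 2.45 Zg16 UMIs per 10000. Outside Zg16, 142 of 5364 genes were over 2-fold higher in Zg16-high barcodes (2.65%) and 598 lower (11.1%). The median gene stood at -0.33 on the log2 scale, so the counts lean toward lower genes. Clca1 was at 4943 against 512 CPM, Capn9 at 181 against 25.5 CPM and Rgs2 at 393 against 50.1 CPM. Scin, the actin-cutting protein, stood at 747 against 122 CPM, Muc2 at 6521 against 1802 CPM and Mptx1 at 149.9 against 36.9 CPM. The others among the 8 highest were Sval1 (106 against 5.01 CPM), Gsta4 and Rhoc, besides Chgb and Tac1, of whose UMIs in Zg16-high barcodes 1 barcode held 99.7% and 98.4%. All 16 cell cycle genes were lower in the Zg16-high barcodes, 11 of them with under 50 UMIs there. The cycling range held 6 Zg16-high and 78 Zg16-low barcodes. Of 7 counted Paneth markers 5 were lower. Sox4 (19.1 against 61.9 CPM), Sox9 (45.6 against 99.2 CPM) and Dll4 (17.8 against 45.1 CPM) were lower too. The 8 lowest were Retnlb, Prelp, Defa17, AY761184, Wnt3, Rnase1, Defa26 and Cenpf, and Rnase1, a secreted ribonuclease, stood at 42.2 against 629 CPM. Of the UMIs in Zg16-low barcodes 1 barcode held 58.1% for Retnlb, 49.0% for AY761184 and 42.9% for Defa26. None of 25 counted ER folding, 14 unfolded protein response or 31 ER entry genes was past 2-fold. Median UMIs were 9717 in Zg16-high and 8262 in Zg16-low barcodes, and Scrublet marked 5 and 7 of them.

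A further set of goblet barcodes was rich in Paneth cell products. At 50 or more Defa24 UMIs per 10000, a limit chosen after the values were seen, there were 129 of 985 goblet barcodes (13.1%, 11.1 to 15.4), with 52 barcodes between 25 and 50 and 37 between 50 and 100. All 88 Paneth barcodes passed this limit, and in the other 8 classes at most 1.79% did (tuft cells). Outside Defa24, 70 of 8461 genes were over 2-fold higher in the Defa24-rich barcodes (0.827%) and 374 lower (4.42%). The median gene stood at -0.20 on the log2 scale. Itln1 stood at 14323 against 922 CPM, Lyz1 at 6569 against 570.1 CPM and Mmp7 at 1418 against 263 CPM. Spink4 was at 45242 against 14918 CPM, a level above the 12535 CPM of Paneth cells, and Reg4 at 1441 against 139.9 CPM. The mucus genes did not all follow. Muc2 was at 4202 and 3853 CPM and Tff3 at 28325 and 27844 CPM, whereas Clca1 was lower, at 976 against 2693 CPM. The factors Sox9 (128 against 60.7 CPM) and Bhlha15 (29.5 against 13.3 CPM) were higher and Atoh1 was level (307 and 333 CPM).

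Proportions to Defa24 were set beside those in Paneth cells. Choosing barcodes by Defa24 lowers any ratio to it, so these values are a description. Lyz1 was at 14.2 per 100 Defa24 UMIs in Defa24-rich goblet barcodes and 23.5 in Paneth cells, and Itln1 at 31.0 and 19.6. Per 100 Defa24 UMIs, Defa24-rich goblet barcodes had 1.73 of Defa30, the other goblet barcodes 12.9, the whole goblet class 2.59 and Paneth cells 36.5, while stem, transit amplifying, progenitor, enterocyte, tuft and enteroendocrine classes had 19.8 to 29.4. Mptx2, a Paneth cell pentraxin, was at 10.1 CPM in the Defa24-rich goblet barcodes and 5228 CPM in Paneth cells, and Defa22 at 68.2 and 19769 CPM. Mmp7 went the other way, with 3.07 and 0.557 per 100 Defa24 UMIs. Scrublet marked 6 of the 129, median depth was 7819 UMIs against 9028 in the other goblet barcodes, and without the marked barcodes the Defa30 proportion was 1.77. How UMIs were divided among the near-identical defensin genes is uncertain. The remaining genes of the 8 highest were Retnlb, AY761184, Defa34, Defa17, Defa26, Clps and Habp2. For Retnlb 1 barcode held 55.4% of the UMIs in Defa24-rich barcodes, for Defa34 72.3%, for AY761184 43.9% and for Defa26 33.3%. Clps, pancreatic colipase, stood at 791 against 42.8 CPM. The 8 lowest were Gsta4, C2cd4a, Cenpf, Ccna2, Clca1, Cenpa, Cdca3 and Krt20, of which Cenpf, Ccna2, Cenpa and Cdca3 act in the cell cycle, and 17 of the 129 barcodes were in the cycling range. Zg16-low barcodes held 55 of the 129 and Zg16-high barcodes 22.

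**Figure D4:**
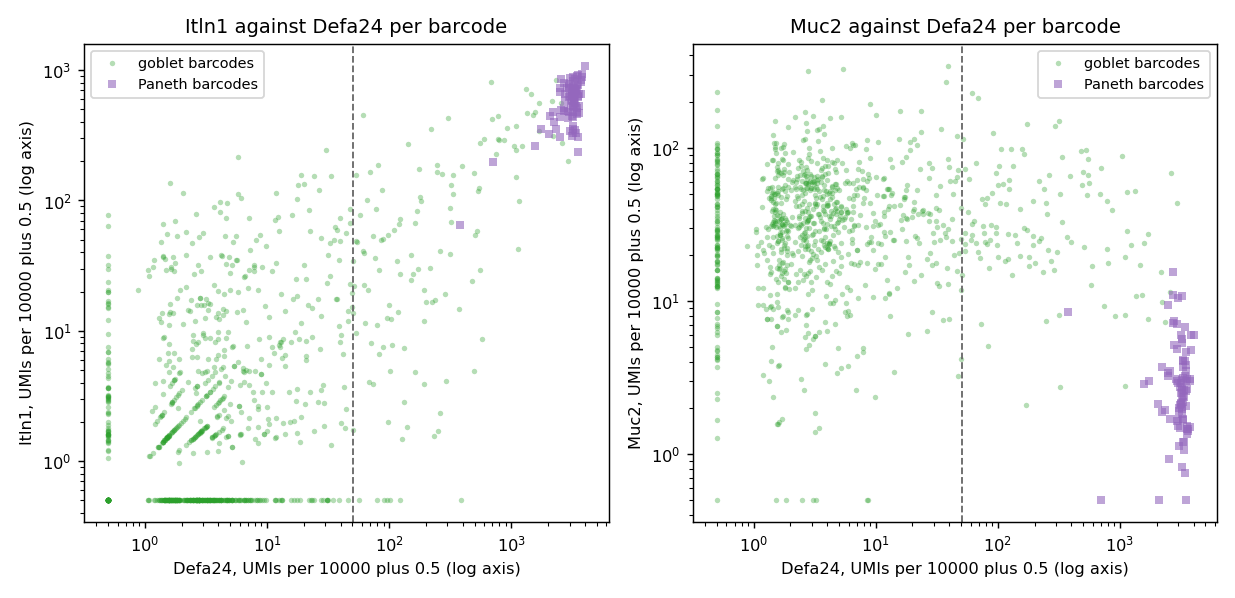
Itln1 (left) and Muc2 (right) against Defa24 in each goblet (green) and Paneth (purple) barcode, in UMIs per 10000 plus 0.5 on log axes, with a dashed line at the limit of 50 Defa24 UMIs per 10000. Goblet barcodes right of the line have Itln1 levels up to those of Paneth barcodes, while most of them keep Muc2 above the Paneth cluster.

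The intestinal multiplets are a library from which the goblet class was not made. Of 3671 multiplets, 272 (7.41%, 6.58 to 8.30) had a summed Muc2, Clca1, Tff3 and Fcgbp level at or above the median of goblet singlets, and 2356 lay below the 95th percentile of non-goblet singlets. Median depths were 8327 and 11626 UMIs. Outside the 4 markers, 1028 of 11459 genes with at least 50 UMIs over all multiplets were over 2-fold higher in the marker-rich barcodes (8.97%) and 2661 lower (23.2%). Of the 191 goblet genes, 4 are the markers, 1 was under the filter, and all of the other 186 were over 2-fold higher, with a median ratio of 11.3 against 0.794 for all genes. The lowest of the 186 had a ratio of 2.09. Of the 304 genes below the 6 classes in singlets 297 were counted and 272 were over 2-fold lower. Zg16 stood at 107616 CPM in marker-rich and 93.9 CPM in marker-poor multiplets, Agr2 at 29175 and 200.4 CPM, Mptx1 at 92.3 and 0.543 CPM and Atoh1 at 275 and 3.90 CPM. Nlrp6 was at 22.0 and 187 CPM. Bhlha15, 10.1-fold higher in goblet singlets, was 1.37-fold (0.749 to 2.34) in the multiplets, and Hsp90b1, 2.03-fold higher in singlets, was 1.47-fold (1.41 to 1.52). Since the marker-rich barcodes were picked by goblet genes, these ratios describe which genes go with the markers in a second library, and the other cells in those clusters were not identified here.

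**Figure D5:**
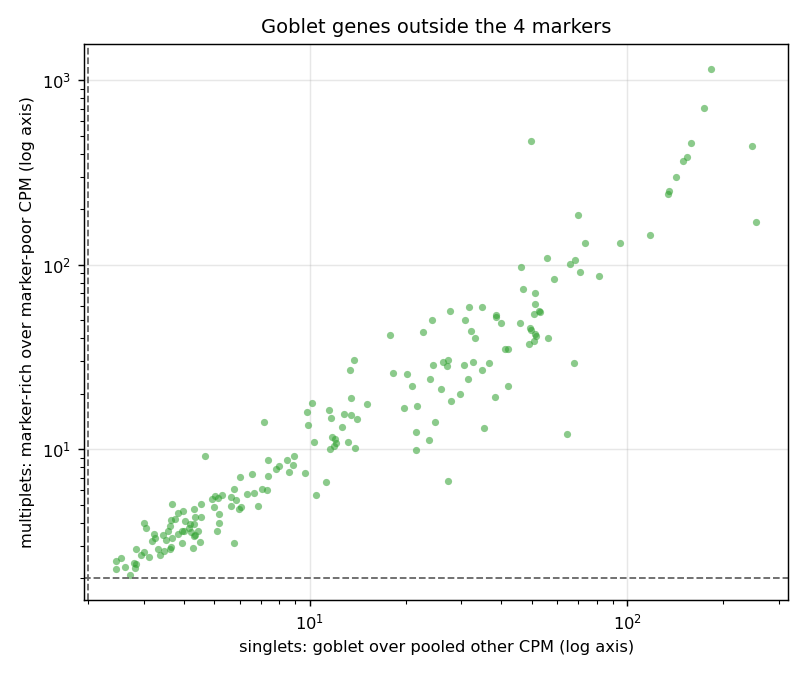
Ratio of CPM in goblet over pooled other singlets (x axis) and in marker-rich over marker-poor multiplets (y axis) for the 184 goblet genes outside the 4 markers with at least 1 UMI in marker-poor multiplets, on log axes; 2 further genes had 0 there. Dashed lines mark 2-fold; all points lie above the line on both axes.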

How the data were processed

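Droplet single-cell RNA libraries (Chromium 3' v3, per the labels' protocols) were analysed from the count tables of intestinal singlets and multiplets. The submitters' processing notes list Cell Ranger 4.0.0 and mm10. The deposited values were whole-number UMI counts per gene symbol and barcode, not normalized, and all used barcodes carried the authors' passing flag. The sources used here do not say how singlets were told from multiplets or how the authors set the flag.

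Counts were summed per class and scaled to CPM without a pseudocount, with no further filter on barcodes. Ratios were called at more than 2-fold for genes with at least 50 UMIs on either side. Barcodes were thinned to 1500 UMIs for shares, and none was shallower. Scrublet (scanpy 1.11.5) marked 85 of 5279 singlets (1.61%), which were kept and left out as an alternative. TMM factors came from edgeR 4.0.16, used for scaling alone, without a test. The ratio and interval code was tested on simulated data. Intervals used scipy 1.17.1 and cover counting error only.

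Members, gene lists, rules and splits were chosen with earlier results of these data known. Named genes are the 15 highest against the next class (at least 50 CPM in goblet cells), the 10 lowest against the pooled others (at least 50 CPM there), the 10 most abundant outside mitochondrial, ribosomal protein and elongation factor genes, members of the lists, and the 8 highest and 8 lowest of each split (at least 50 CPM on the higher side), without Gm-numbered, Rik and mitochondrial genes. The 10 lowest against 6 classes and the Zg16 and Defa24 splits were added after the values were seen. The most abundant genes besides those in the text were Lgals2, Lgals4, Tmsb4x and Tpt1. Some genes that the rule names are not reported here. The lung libraries were used only to count shared barcodes.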

Additional observations from a re-analysis of the deposited data

How the results depend on the processing

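No paired analysis was possible because each group has 1 library. The share of goblet cells was 18.7% and 18.2% without Scrublet-marked barcodes. The count of higher genes was 710 to 1138 with the other references, weightings, TMM scaling, thinning to 1500 UMIs or without marked barcodes, 641 with a filter of 200 UMIs and 1046 with one of 20 UMIs, but 1678 with no filter beyond 1 UMI on both sides, 1456 at 1.5-fold and 484 at 3-fold. Lower genes were 3530 at 1.5-fold and 1110 at 3-fold. Genes above every other class were 114 with TMM scaling, 323 at 1.5-fold and 98 at 3-fold; the cause of the TMM difference was not tested. The share in the cycling range was 13.0% at 3 or more UMIs and 34.6% at 1 or more, which also left 50 lower genes. Goblet genes higher in marker-rich multiplets were 184 to 186 under all 3 alternatives run. The direction of these marker sums and genes turned with the reference: the Paneth list was 10.6-fold without Paneth cells and 10.7-fold against the 6 stem, transit amplifying, progenitor and enterocyte classes (an alternative chosen after seeing the data), Defa24 15.3-fold and 15.4-fold, and against those 6 the enteroendocrine list was 14.5-fold, the tuft list 3.11-fold, the stromal list 4.38-fold, Nts 1.25-fold, Ghrl 1.12-fold and Rgs13 1.88-fold. The enteroendocrine fold against the 6 rested mostly on Sct (1.5-fold without it) and the stromal fold on Vim (0.512-fold without it), most of it in 1 barcode. The summed cell cycle list also turned, from 0.573-fold to 1.16-fold, with each class weighted equally. With 1 library, counting error is the only error known, and levels near 1 UMI per barcode limit what can be said of single barcodes.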

Other observations

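The genes below were picked after their values were seen, and no list of them was counted. Of the immediate early genes, Fos stood at 941 CPM against 119 CPM in the pooled others, Jun at 1225 against 252 CPM and Atf3 at 363 against 30.5 CPM. Hspa1a, a heat shock gene, stood at 456 against 91.7 CPM. Enteroendocrine cells were at like levels, with 830.0 CPM of Fos and 1327 CPM of Jun. Atf3 was uneven over goblet barcodes, where 100 of 985 held 52.2% of its UMIs.

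The chemokine gene Ccl6 was at 1056 CPM against 61.3 CPM in the pooled others and 899 CPM in Paneth cells, and Ccl9 at 449 against 7.96 CPM. Guca2a, which encodes the peptide guanylin that drives fluid secretion, was at 1262 CPM against 36.2 CPM, and 97.2% of goblet barcodes had a UMI. Wnt3, a ligand known from Paneth cells, was at 23.0 CPM in goblet cells as a class and 76.7 CPM in Paneth cells, and within goblet cells it stood at 54.2 CPM in Zg16-low and 3.31 CPM in Zg16-high barcodes.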
